A study of Rattus norvegicus with 9 samples.

Results

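A set of 35 genes that mark microglia and macrophages was followed in RNA-seq libraries of neural stem cells (NSCs), which give rise to neurons and glia in culture. The genes were chosen by name, with complement and chemokine genes left out, and were sorted into 7 roles: core myeloid identity, resident microglia, border macrophage, phagocytic and lysosomal genes, Fc receptors and ITAM adaptors, leukocyte integrins and other surface proteins, and NADPH oxidase. Of the 35 genes, 33 had a row among the 23953 genes of the count table, and the levels of Gpr34 and Siglech were not analysed here. The filter on low counts was passed in at least 1 comparison by 22 of them.

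The NSCs came from spinal cords of neonatal rats and were grown in differentiation medium with serum. The Con group had this medium alone. The Exo group also received exosomes, small vesicles that cells release, from rat bone marrow mesenchymal stem cells (BMSCs) that carried an empty lentiviral vector, and the pLV-Exo-Wnt5a group received exosomes from BMSCs that overexpressed Wnt5a by the same kind of vector. Each group had 3 libraries, all in 1 batch by the labels. The modified cells were thus the exosome donors and not the sequenced NSCs, the Con group received no exosomes, and the exosome dose and the time of RNA extraction are not given in the sources used here. No source says that the replicates of a group were separate cultures or animals, so the p-values measure only the spread between these libraries, which may be technical.

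Microglia are the resident macrophages of the brain and spinal cord. They arise from the yolk sac and not from neural stem cells, and they depend on signals through the receptor Csf1r. Border macrophages of the meninges and vessels share the core myeloid genes but carry scavenger receptors such as Mrc1, Stab1 and Cd163, while homeostatic microglia are known for Cx3cr1, P2ry12 and Tmem119. Several of the genes, among them Gpnmb, Lgals3, Cd68, Ctss and Cyba, also occur in cells outside the myeloid lineage. In bulk RNA of this kind, fewer cells of a type and less RNA per cell cannot be told apart.

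Total counts ranged from 32765138 to 40427647 per library, so the upper limit behind a count of 0, taken as 3 counts, stood at 0.0727 to 0.0908 CPM (counts scaled to a common library total after TMM normalization). The limit covers counting error only. Con replicate 1 stood apart, with the highest value of the 9 libraries for 28.3% of the 15458 genes kept over the 3 groups and the lowest for 28.0%. Of 11 Hox genes that mark the spinal cord, 4 had a row, and together they reached 0 to 0.0510 CPM, so the labelled tissue was not reflected in these markers. Markers of neural stem cells and astrocytes were present in every library, with Nes at 78.4 to 162 CPM and Gfap at 2195 to 4071 CPM. The table carries mouse symbols and gene numbers of the NCBI mouse annotation although the cells are described as rat. How this affects the members at or near 0 counts was not tested, and the values are named here by symbol alone.

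The share of a library's counts that fell on the members ranged from 0.00333% to 0.00664%. Their summed level was 55.3, 46.5 and 54.5 CPM in Con replicates 1, 2 and 3, 32.9, 36.3 and 37.0 CPM in Exo, and 60.7, 66.1 and 59.4 CPM in pLV-Exo-Wnt5a. The 3 groups did not overlap in this sum, with Exo lowest and pLV-Exo-Wnt5a highest, and no test was run on it. Gpnmb, Lyz2, Stab1 and Laptm5 supplied 55.0% to 66.0% of the members' counts. Without these 4 genes the sum was 18.5 to 22.5 CPM in Con, 14.8 to 15.6 CPM in Exo and 20.2 to 25.5 CPM in pLV-Exo-Wnt5a, so Exo was still the lowest and the Con and pLV-Exo-Wnt5a groups overlapped.

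**Figure D1:**
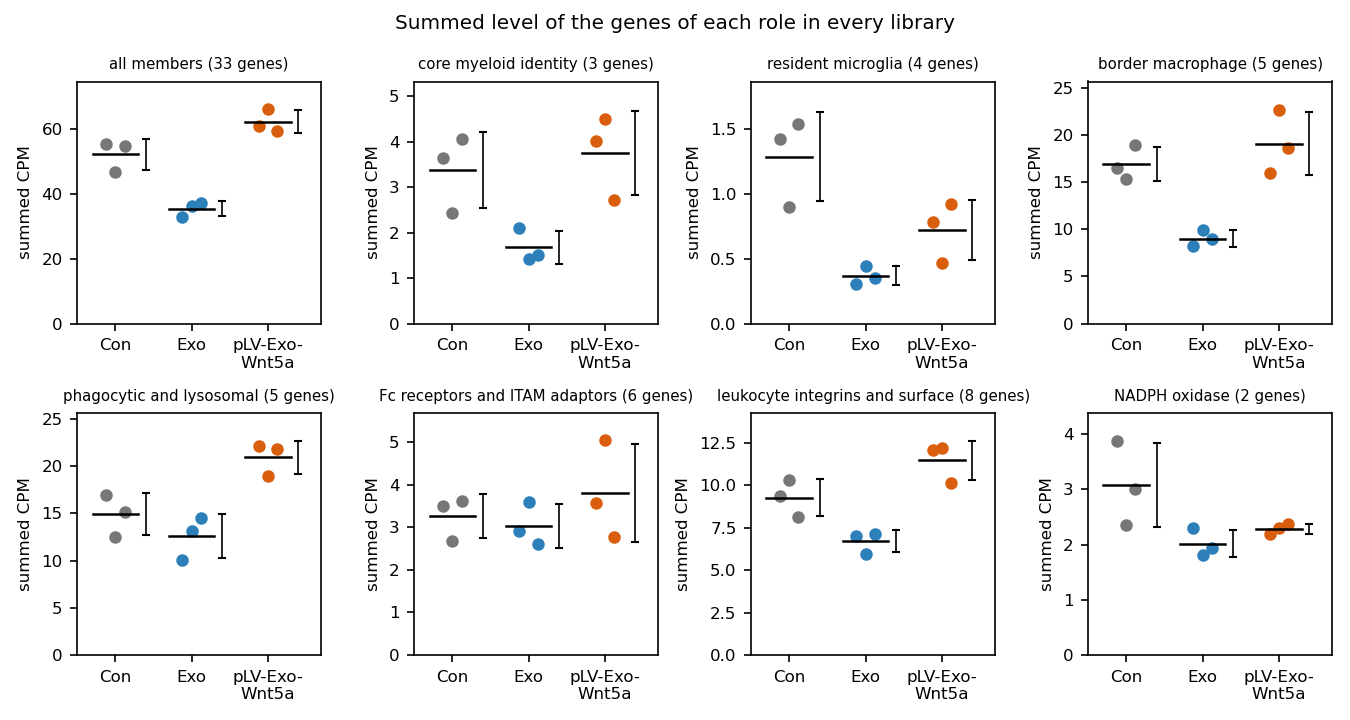
Summed CPM of all 33 members and of the genes of each role (y axis, from 0) in the 3 groups (x axis), with 1 point per library, a line at the mean and a bar of ± 1 SD over 3 libraries. The sum of all members lies between 32.9 and 37.0 CPM in the Exo libraries, below every library of the Con and pLV-Exo-Wnt5a groups, while the sum of the Fc receptor and ITAM adaptor genes overlaps between all groups.

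Each pair of groups was compared with edgeR's quasi-likelihood test over all genes, with Benjamini-Hochberg adjusted p-values (Q). A strict rule asked for Q under 0.05 with at least a 2-fold difference in either direction, and a wider rule for an unadjusted p under 0.05 with a log2FC beyond 0.58 in either direction. Members called higher or lower without mention of Q met the wider rule. For Exo against Con, Stab1 was the single member of 20 tested that met the strict rule, which 0.0199% of all genes met. The wider rule was met by 6 of the 20, all lower in Exo (Cd52, Csf1r, Cx3cr1, Ly86, Lyz2 and Stab1), against 4.09% of all genes in either direction and 0.856% lower. The median log2FC of the 20 members was -0.51, with 17 lower and 3 higher, and that of all genes was 0.00. The libraries of both groups did not overlap for 7 of the 20, again all lower, against 23.3% of all genes in either direction and 12.4% lower. These 7 were also the members with an unadjusted p under 0.05 (14.3% of all genes, 6.06% lower), Laptm5 being the addition to the 6.

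For pLV-Exo-Wnt5a against Exo, Lyz2 was the single member of 21 tested that met the strict rule, against 0.172% of all genes, 0.152% higher. The wider rule was met by 11 of 21, all higher in pLV-Exo-Wnt5a, against 3.46% of all genes in either direction and 1.51% higher. The same 11 genes had libraries that did not overlap, against 16.5% of all genes (7.90% higher), and were the members with an unadjusted p under 0.05, against 11.9% (5.13% higher). The median log2FC of the 21 was 0.71, with 20 higher and Trem2 lower, and that of all genes was 0.00. For pLV-Exo-Wnt5a against Con, 0 of 22 members met the strict rule in edgeR and 0 in DESeq2, against 0.0729% of all genes in edgeR. There, 6 members had an unadjusted p under 0.05 (8.47% of all genes, 4.29% higher and 4.18% lower). The wider rule was met by 5 of them (2.16% of all genes), with Cd53, Fcgr3, Gpnmb and Lyz2 higher (1.47% of all genes) and Cx3cr1 lower (0.689%). Libraries did not overlap for 6 members, 5 higher and Cyba lower, against 16.6% of all genes (7.52% higher and 9.09% lower), and the median log2FC was 0.25 over the 22 against 0.00 over all genes. The 3 comparisons share libraries, so a library that is low or high enters 2 of them, and the counts of one are not independent of the others.

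The counts above rest on the members that passed the filter on low counts. Fcgr3 and Cybb passed it only in the comparisons with pLV-Exo-Wnt5a, and Ly86 only in those with Con, so these genes had to be high in 1 group to be tested at all. Among the 19 members tested in all 3 comparisons, the wider rule was met by 5 for Exo against Con, all lower (4.09% of all genes in either direction). It was met by 9 for pLV-Exo-Wnt5a against Exo, all higher (3.46% of all genes). By 4 it was met for pLV-Exo-Wnt5a against Con, 3 higher and Cx3cr1 lower (2.16% of all genes). The median log2FC of the 19 was -0.50, 0.66 and 0.24 in turn. Leaving out single libraries moved 3 of the counts by more than 1.5 times. The strict rule called 0 members for Exo against Con without Con replicate 2 or without any 1 of the Exo libraries, and the wider rule called 2 members for pLV-Exo-Wnt5a against Con when replicate 1 of the first group was left out and 3 when its replicate 3 was. The strict rule called 2 members for pLV-Exo-Wnt5a against Exo without Exo replicate 3 or pLV-Exo-Wnt5a replicate 2. Without Con replicate 1, the library that stood apart, the wider rule called 6 members for Exo against Con and 4 for pLV-Exo-Wnt5a against Con. The median log2FC of the members was -0.34 for Exo against Con without it, and for pLV-Exo-Wnt5a against Con it was 0.03 with Con replicate 2 left out and 0.13 with pLV-Exo-Wnt5a replicate 2 left out. The shares over all genes moved as well, as in these examples. By the strict rule, 0 genes were called for pLV-Exo-Wnt5a against Con without pLV-Exo-Wnt5a replicate 2 or 3. The same rule called 0.0711% for pLV-Exo-Wnt5a against Exo without Exo replicate 2. For Exo against Con the wider rule called 2.14% of all genes without Con replicate 1 and 9.08% without Con replicate 3, where the strict rule called 0.537%, and for pLV-Exo-Wnt5a against Con the wider rule called 4.29% without Con replicate 3.

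Over the 22 members kept in all groups, the lowest of the 9 values lay in an Exo library for 17, against 31.9% of all genes, in a Con library for 4, against 41.4%, and in a pLV-Exo-Wnt5a library for 1, against 26.8%. The highest value lay in a pLV-Exo-Wnt5a library for 12, against 27.2% of all genes, in a Con library for 9, against 40.2%, and in an Exo library for 1, against 32.7%. Among single libraries, pLV-Exo-Wnt5a replicate 2 held the highest value of 8 members (10.7% of all genes) and Exo replicate 1 the lowest of 7 (14.7% of all genes). The 22 include Fcgr3, Cybb and Ly86, which had to be high in 1 group to pass the filter, so their extremes are partly fixed.

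**Figure D2:**
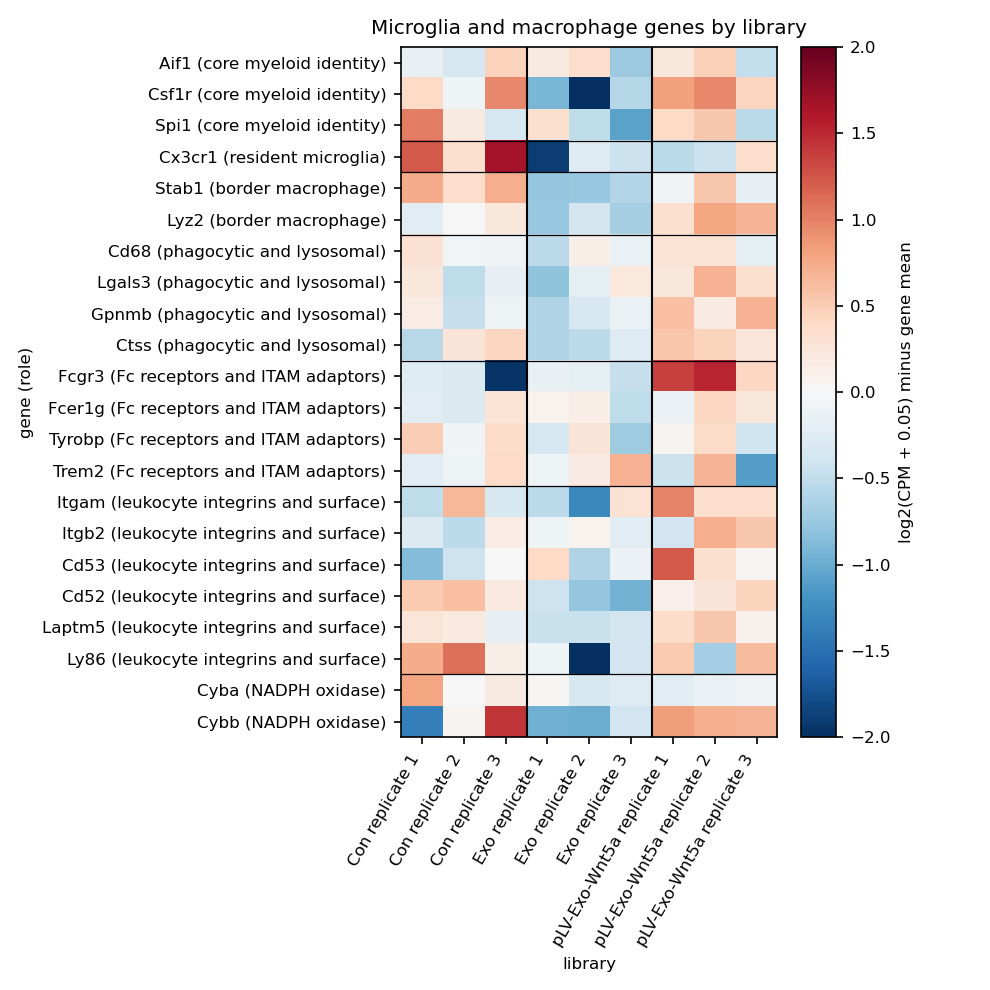
Level of the 22 members kept over the 3 groups (rows, with their role) in the 9 libraries (columns), as log2(CPM + 0.05) minus the mean of the gene over the libraries, in blue where lower and red where higher, with colours ending at 2 in either direction. The 3 Exo columns hold the lowest value of 17 members and the pLV-Exo-Wnt5a columns the highest of 12, while genes such as Aif1, Trem2 and Fcer1g show no shared pattern within a group. Fcgr3, Cybb and Ly86, which did not pass the filter in every comparison, are among the 22.

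The core myeloid genes gave unlike values. Csf1r encodes the receptor for the growth factors Csf1 and Il34 on which microglia depend. It was measured at 1.92, 1.36 and 2.85 CPM in Con replicates 1, 2 and 3, at 0.740, 0.323 and 0.959 CPM in Exo, and at 2.60, 2.86 and 1.96 CPM in pLV-Exo-Wnt5a. All 3 Exo libraries were below the other 6, and the Con and pLV-Exo-Wnt5a groups overlapped. Its log2FC was -1.59 for Exo against Con (SE 0.43, Q = 0.274, edgeR), 1.88 for pLV-Exo-Wnt5a against Exo (SE 0.37, Q = 0.0597), and 0.28 for pLV-Exo-Wnt5a against Con (SE 0.31, Q = 0.806). Without Exo replicate 3, Csf1r met the strict rule for pLV-Exo-Wnt5a against Exo, and so it did under DESeq2 and in edgeR with no filter on low counts, both in this comparison and in that of Exo with Con.

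Aif1, which encodes the calcium-binding protein Iba1 used to stain microglia, ranged from 0.303 to 0.764 CPM, or 12 to 28 counts, and its groups overlapped throughout. The log2FC of Aif1 was -0.02 for Exo against Con, with a 95% interval from -1.07 to 1.04, and 0.13 for pLV-Exo-Wnt5a against Exo, with an interval from -0.93 to 1.18. The intervals thus reached differences of about 2-fold in either direction. Spi1, the gene of the master myeloid transcription factor PU.1, had 10 to 47 counts. Its log2FC was -0.77 (SE 0.53) for Exo against Con and 0.56 (SE 0.52) for pLV-Exo-Wnt5a against Exo, with Q of 0.481 and 0.741 in edgeR's quasi-likelihood test.

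Of the resident microglia genes, Cx3cr1 alone passed the filter on low counts. Cx3cr1 is the receptor for the neuronal chemokine fractalkine. It stood at 1.05, 0.539 and 1.45 CPM in Con replicates 1, 2 and 3, at 0.0766, 0.348 and 0.303 CPM in Exo, and at 0.278, 0.300 and 0.557 CPM in pLV-Exo-Wnt5a. The Exo libraries were all below the Con libraries, and pLV-Exo-Wnt5a replicate 3 reached just above Con replicate 2. The log2FC was -2.04 for Exo against Con (SE 0.58, Q = 0.281, edgeR) and -1.40 for pLV-Exo-Wnt5a against Con (SE 0.50, Q = 0.508). With no filter on low counts, Cx3cr1 met the strict rule for Exo against Con. Between both exosome groups its log2FC was 0.65, with a 95% interval from -0.70 to 2.00. The value for pLV-Exo-Wnt5a against Con no longer passed an unadjusted p of 0.05 with Con replicate 3 left out (log2FC -1.07), nor with pLV-Exo-Wnt5a replicate 1 (-1.23) or 2 (-1.26) left out. By the wider rule, Cx3cr1 was thus the member lower in both exosome groups than in Con, whose libraries both comparisons share.

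The other resident genes were near the limit of detection. P2ry12, a purine receptor that guides microglial processes, had 0 counts in 3 libraries and at most 12. Its relative P2ry13 had 0 counts in 6 libraries and at most 4. Tmem119, a surface protein used to tell microglia from other macrophages, had 14, 1 and 2 counts in Con replicates 1, 2 and 3, 1, 0 and 1 in Exo, and 8, 6 and 12 in pLV-Exo-Wnt5a. The Exo libraries thus held 0 or 1 count of Tmem119 and each pLV-Exo-Wnt5a library at least 6, but the gene failed the filter in every comparison and was chosen for display after its values were seen. Where that filter was not applied, Tmem119 met the wider rule for pLV-Exo-Wnt5a against Exo in edgeR and in DESeq2 on 2 groups or all 9 libraries, and for Exo against Con in DESeq2 on all 9 libraries alone.

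Among the border macrophage genes, Stab1 and Lyz2 carried nearly all counts and differed in their pattern. Stab1 encodes stabilin-1, a scavenger receptor of macrophages and sinusoidal endothelium. It stood at 8.94, 6.78 and 8.81 CPM in Con replicates 1, 2 and 3, at 3.09, 3.13 and 3.51 CPM in Exo, and at 5.08, 7.75 and 4.75 CPM in pLV-Exo-Wnt5a. The Exo libraries lay within a narrow range below the other 6, and pLV-Exo-Wnt5a replicate 2 was within the range of Con. Stab1 fell in Exo against Con with a log2FC of -1.33 (SE 0.19, Q = 0.0478, edgeR's quasi-likelihood test, adjusted by Benjamini-Hochberg).

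The Stab1 call sat close to the threshold. Without Con replicate 2 or without Exo replicate 1, 2 or 3 the strict rule was not met, with a log2FC of -1.45, -1.30, -1.31 and -1.38 in turn, and the call was also lost with RLE normalization, with at least 10 counts required in every library and with edgeR on all 9 libraries. For pLV-Exo-Wnt5a against Exo the log2FC of Stab1 was 0.86 (SE 0.21, Q = 0.119, edgeR). For pLV-Exo-Wnt5a against Con it was -0.48 (SE 0.22, Q = 0.585), a value past an unadjusted p of 0.05 that did not pass it with Con replicate 1 (-0.42), Con replicate 3 (-0.43), pLV-Exo-Wnt5a replicate 1 (-0.39) or pLV-Exo-Wnt5a replicate 3 (-0.35) left out, with RLE normalization, or with at least 10 counts required in every library (both -0.48).

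Lyz2, the gene of the lysozyme of macrophages and other myeloid cells, stood at 7.33, 8.47 and 10.02 CPM in Con replicates 1, 2 and 3, at 5.03, 6.61 and 5.35 CPM in Exo, and at 10.7, 14.8 and 13.8 CPM in pLV-Exo-Wnt5a. No 2 of the groups overlapped, in the order Exo, Con and pLV-Exo-Wnt5a from low to high. Lyz2 rose in pLV-Exo-Wnt5a against Exo with a log2FC of 1.21 (SE 0.17, Q = 0.00987, edgeR's quasi-likelihood test), and met the strict rule without any 1 of the 6 libraries. Its log2FC was -0.60 for Exo against Con (SE 0.19, Q = 0.281) and 0.60 for pLV-Exo-Wnt5a against Con (SE 0.18, Q = 0.419).

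The other border macrophage genes of the set were at or near 0. Mrc1, the mannose receptor, had 0 counts in 7 libraries and 2 counts each in pLV-Exo-Wnt5a replicates 1 and 2. Cd163, the haemoglobin scavenger receptor, had 0 to 7 counts. Cd74, the invariant chain of MHC class II, had 1, 2 and 0 counts in Con replicates 1, 2 and 3, 1, 1 and 2 in Exo, and 5, 2 and 6 in pLV-Exo-Wnt5a. For Cd74, pLV-Exo-Wnt5a replicate 2 had the same 2 counts as Con replicate 2 and Exo replicate 3. All 3 genes failed the filter in every comparison. Of 9 further border macrophage genes, Ms4a7 alone was tested, with a log2FC of -0.55 for Exo against Con and 0.63 for pLV-Exo-Wnt5a against Exo, neither past an unadjusted p of 0.05, and Lyve1 and F13a1 had 0 or 1 count in every library.

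Of the phagocytic and lysosomal genes, 3 of 4 tested were higher in pLV-Exo-Wnt5a than in Exo by the wider rule (1.51% of all genes), with Lgals3 losing its p in 6 alternatives, and 0 of 4 met it for Exo against Con (4.09% of all genes). Gpnmb, a glycoprotein of lysosomes and melanosomes, stood at 10.2, 6.70 and 8.60 CPM in Con replicates 1, 2 and 3, at 6.07, 7.40 and 8.48 CPM in Exo, and at 14.1, 10.4 and 15.1 CPM in pLV-Exo-Wnt5a. The pLV-Exo-Wnt5a libraries were above the other 6, among which the Con and Exo groups overlapped. The log2FC of Gpnmb was 0.86 against Exo (SE 0.17, Q = 0.0638, edgeR) and 0.63 against Con (SE 0.20, Q = 0.458). It met the strict rule against Exo without pLV-Exo-Wnt5a replicate 2.

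Ctss, the gene of the lysosomal protease cathepsin S, stood at 1.00, 1.80 and 2.03 CPM in Con replicates 1, 2 and 3, at 0.970, 1.02 and 1.24 CPM in Exo, and at 2.22, 2.05 and 1.77 CPM in pLV-Exo-Wnt5a. Con replicate 1 lay among the Exo libraries and the other Con libraries among or near the pLV-Exo-Wnt5a libraries. The log2FC of Ctss was 0.91 for pLV-Exo-Wnt5a against Exo (SE 0.27, Q = 0.197, edgeR) and -0.58 for Exo against Con (SE 0.34, Q = 0.421), which became -0.83 and passed an unadjusted p of 0.05 without Con replicate 1.

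Lgals3, the gene of the sugar-binding protein galectin-3, stood at 2.24, 1.34 and 1.69 CPM in Con replicates 1, 2 and 3, at 1.07, 1.66 and 2.22 CPM in Exo, and at 2.25, 3.14 and 2.40 CPM in pLV-Exo-Wnt5a. The lowest pLV-Exo-Wnt5a library was barely above the highest library of each other group. The log2FC was 0.66 for pLV-Exo-Wnt5a against Exo (SE 0.29, Q = 0.412, edgeR) and did not pass an unadjusted p of 0.05 with Exo replicate 1 (0.42), Exo replicate 2 (0.65), pLV-Exo-Wnt5a replicate 2 (0.50) or pLV-Exo-Wnt5a replicate 3 (0.70) left out. The p was also above 0.05 with edgeR on all 9 libraries (0.65) and with at least 10 counts required in every library (0.66). Cd68, a lysosomal glycoprotein used to mark phagocytes, had 76 to 135 counts, with a log2FC of -0.22 (95% interval -0.77 to 0.33) for Exo against Con and 0.30 (interval -0.23 to 0.82) for pLV-Exo-Wnt5a against Exo. Msr1, a scavenger receptor, had 0 counts in 5 libraries and at most 7.

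**Figure D3:**
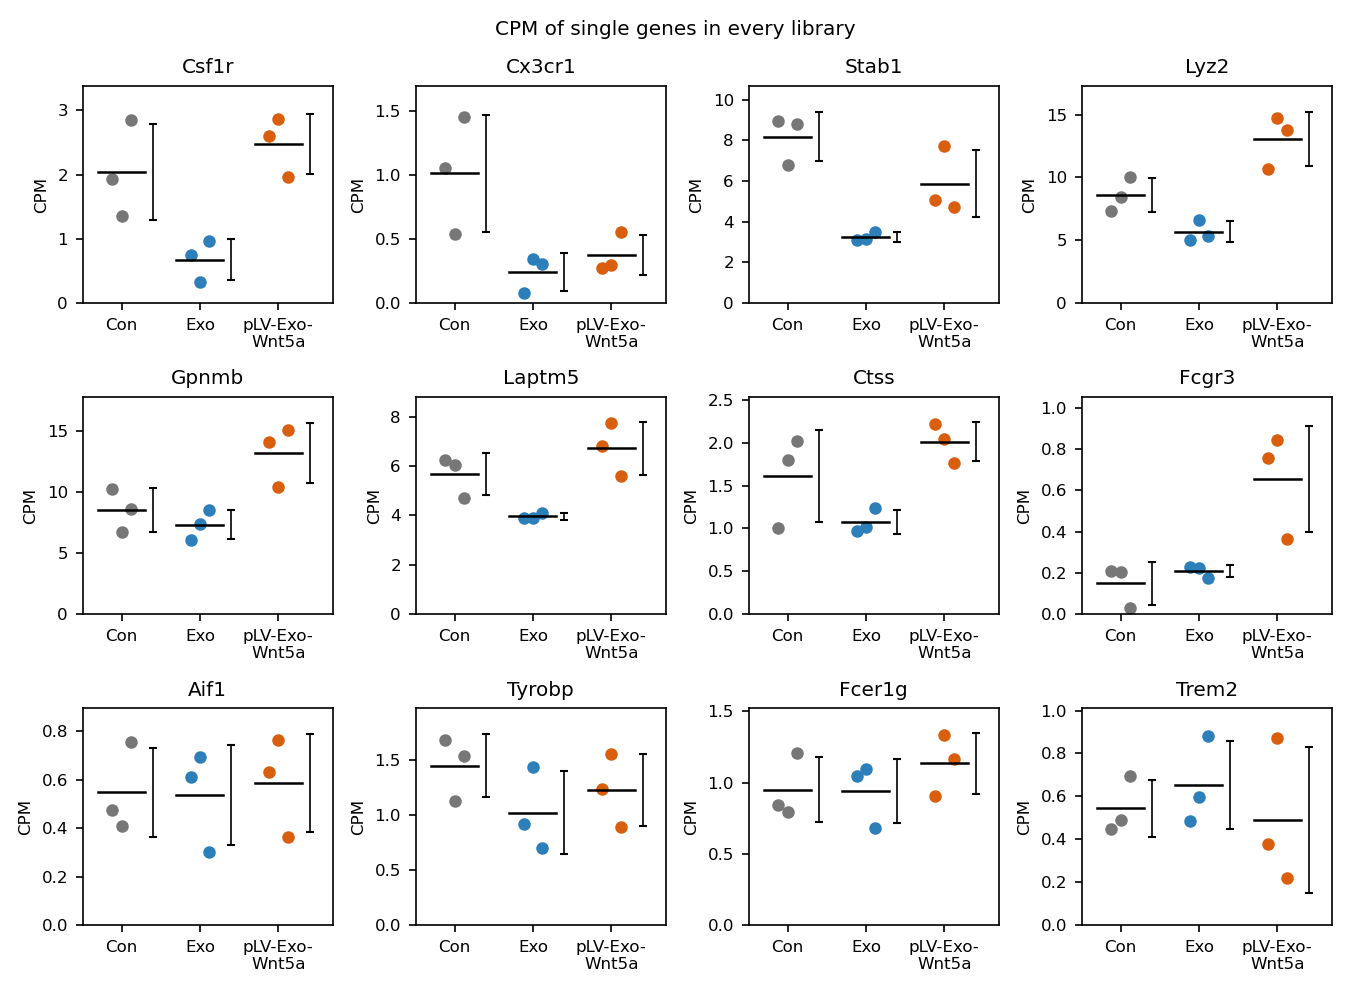
CPM (y axes, from 0) of 12 members in the 3 groups (x axes), with 1 point per library, a line at the mean and a bar of ± 1 SD over 3 libraries. The Exo libraries lie below all others for Csf1r, Stab1, Lyz2 and Laptm5, the pLV-Exo-Wnt5a libraries lie above all others for Lyz2, Gpnmb and Fcgr3, and the groups overlap for Aif1, Tyrobp, Fcer1g and Trem2.

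The Fc receptors and ITAM adaptors, which pass signals from antibodies and lipids to the kinase Syk, overlapped between groups in the tested genes except for Fcgr3. Tyrobp, the adaptor of Trem2, stood at 1.69, 1.13 and 1.54 CPM in Con replicates 1, 2 and 3, at 0.919, 1.44 and 0.707 CPM in Exo, and at 1.24, 1.56 and 0.896 CPM in pLV-Exo-Wnt5a. No group was set apart. The log2FC of Tyrobp was -0.50 (95% interval -1.28 to 0.28) for Exo against Con and 0.27 (interval -0.54 to 1.08) for pLV-Exo-Wnt5a against Exo. Fcer1g, the common Fc receptor chain, had values of -0.01 (interval -0.81 to 0.80) and 0.28 (interval -0.47 to 1.03) in the same comparisons. Trem2, a lipid-sensing receptor of microglia, had 9 to 35 counts and values of 0.27 (interval -0.68 to 1.23) and -0.42 (interval -1.61 to 0.76).

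Fcgr3, a low-affinity receptor for IgG, stood at 0.211, 0.205 and 0.0303 CPM in Con replicates 1, 2 and 3, at 0.230, 0.224 and 0.177 CPM in Exo, and at 0.757, 0.846 and 0.363 CPM in pLV-Exo-Wnt5a. The pLV-Exo-Wnt5a libraries were above the other 6, in a gene with 1 to 31 counts. The log2FC was 1.63 against Exo (SE 0.51, Q = 0.222, edgeR) and 2.08 against Con (SE 0.64, Q = 0.449), and since the gene passed the filter only through the group where it was high, these values describe it and support nothing about the list. The activating receptor Fcgr1 had 2 to 11 counts. The inhibitory receptor Fcgr2b had 1, 0 and 1 counts in Con replicates 1, 2 and 3, 0, 0 and 1 in Exo, and 3, 5 and 3 in pLV-Exo-Wnt5a, again below the filter.

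Of the 8 integrin and surface genes, 6 were tested in at least 1 comparison. Laptm5, a lysosomal membrane protein of blood cells, stood at 6.25, 6.06 and 4.72 CPM in Con replicates 1, 2 and 3, at 3.88, 3.88 and 4.11 CPM in Exo, and at 6.82, 7.75 and 5.60 CPM in pLV-Exo-Wnt5a. The Exo libraries were below the other 6. The log2FC of Laptm5 was 0.77 for pLV-Exo-Wnt5a against Exo (SE 0.17, Q = 0.0805, edgeR) and -0.52 for Exo against Con (SE 0.19, Q = 0.294). The second value was past an unadjusted p of 0.05 but under the fold limit, and the p was lost without Con replicate 2 (-0.47) or Exo replicate 2 (-0.51).

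Cd52, a short glycopeptide on the surface of leukocytes, stood at 0.923, 0.976 and 0.726 CPM in Con replicates 1, 2 and 3, at 0.459, 0.348 and 0.303 CPM in Exo, and at 0.682, 0.764 and 0.872 CPM in pLV-Exo-Wnt5a. Again the Exo libraries were below the other 6. The log2FC of Cd52 was -1.24 for Exo against Con (SE 0.41, Q = 0.292, edgeR) and 1.07 for pLV-Exo-Wnt5a against Exo (SE 0.42, Q = 0.343). The first did not pass an unadjusted p of 0.05 without Con replicate 2 (-1.15). The second did not with Exo replicate 2 (1.02), Exo replicate 3 (0.94), pLV-Exo-Wnt5a replicate 2 (1.07) or pLV-Exo-Wnt5a replicate 3 (0.96) left out.

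Itgam, the alpha chain of complement receptor CR3 also known as CD11b, stood at 0.633, 1.49 and 0.726 CPM in Con replicates 1, 2 and 3, at 0.613, 0.348 and 1.14 CPM in Exo, and at 1.87, 1.17 and 1.19 CPM in pLV-Exo-Wnt5a. Exo replicate 3 was just below the lowest pLV-Exo-Wnt5a library. The log2FC between these groups was 1.02 (SE 0.44, Q = 0.386, edgeR). It did not pass an unadjusted p of 0.05 with Exo replicate 1 (0.93), Exo replicate 2 (0.69) or pLV-Exo-Wnt5a replicate 1 (0.77) left out. Itgam passed it for pLV-Exo-Wnt5a against Con when Con replicate 2 was left out (1.05, against 0.56 with all libraries). Itgb2, the beta chain that pairs with Itgam, overlapped between groups, with a log2FC of 0.47 (95% interval -0.36 to 1.31) for pLV-Exo-Wnt5a against Exo.

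Cd53, a tetraspanin of leukocytes, stood at 0.343, 0.488 and 0.666 CPM in Con replicates 1, 2 and 3, at 0.893, 0.422 and 0.606 CPM in Exo, and at 1.62, 0.846 and 0.678 CPM in pLV-Exo-Wnt5a. The pLV-Exo-Wnt5a libraries were above the Con libraries by a small margin and overlapped with the Exo libraries. The log2FC was 1.07 for pLV-Exo-Wnt5a against Con (SE 0.47, Q = 0.576, edgeR). It did not pass an unadjusted p of 0.05 with Con replicate 1 (0.86), Con replicate 2 (1.06) or pLV-Exo-Wnt5a replicate 1 (0.61) left out.

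Ly86, a secreted partner of a Toll-like receptor relative, stood at 0.448, 0.591 and 0.272 CPM in Con replicates 1, 2 and 3, at 0.230, 0.0248 and 0.177 CPM in Exo, and at 0.379, 0.136 and 0.412 CPM in pLV-Exo-Wnt5a. The Exo libraries were below the Con libraries. The log2FC between them was -1.60 (SE 0.68, Q = 0.332, edgeR). It did not pass an unadjusted p of 0.05 in DESeq2 on these 6 libraries (-1.61), nor with Con replicate 1 (-1.59), Con replicate 2 (-1.32), Exo replicate 2 (-1.10) or Exo replicate 3 (-1.76) left out. Ptprc, the phosphatase CD45 shared by nearly all leukocytes, had 0 to 6 counts, and Cd84, a leukocyte adhesion receptor, had 0 to 3.

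The NADPH oxidase makes superoxide in phagocytes from a membrane pair that Cyba and Cybb encode. Cyba stood at 3.85, 2.21 and 2.51 CPM in Con replicates 1, 2 and 3, at 2.25, 1.76 and 1.84 CPM in Exo, and at 1.89, 2.02 and 2.11 CPM in pLV-Exo-Wnt5a. Both exosome groups overlapped, with a log2FC of 0.05 between them (95% interval -0.46 to 0.57), and the difference from Con was -0.55 (SE 0.27, Q = 0.363, edgeR) in Exo and -0.51 (SE 0.27, Q = 0.635) in pLV-Exo-Wnt5a. Without Con replicate 2, Cyba met the wider rule as lower in both. Cybb, the catalytic chain, stood at 0.0264, 0.154 and 0.484 CPM in Con replicates 1, 2 and 3, at 0.0510, 0.0497 and 0.101 CPM in Exo, and at 0.303, 0.273 and 0.266 CPM in pLV-Exo-Wnt5a. The Con libraries spanned a wider range than both exosome groups together. The log2FC of Cybb was 2.02 for pLV-Exo-Wnt5a against Exo (SE 0.66, Q = 0.245, edgeR), in a gene with 1 to 16 counts that was tested only with pLV-Exo-Wnt5a.

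**Figure D4:**
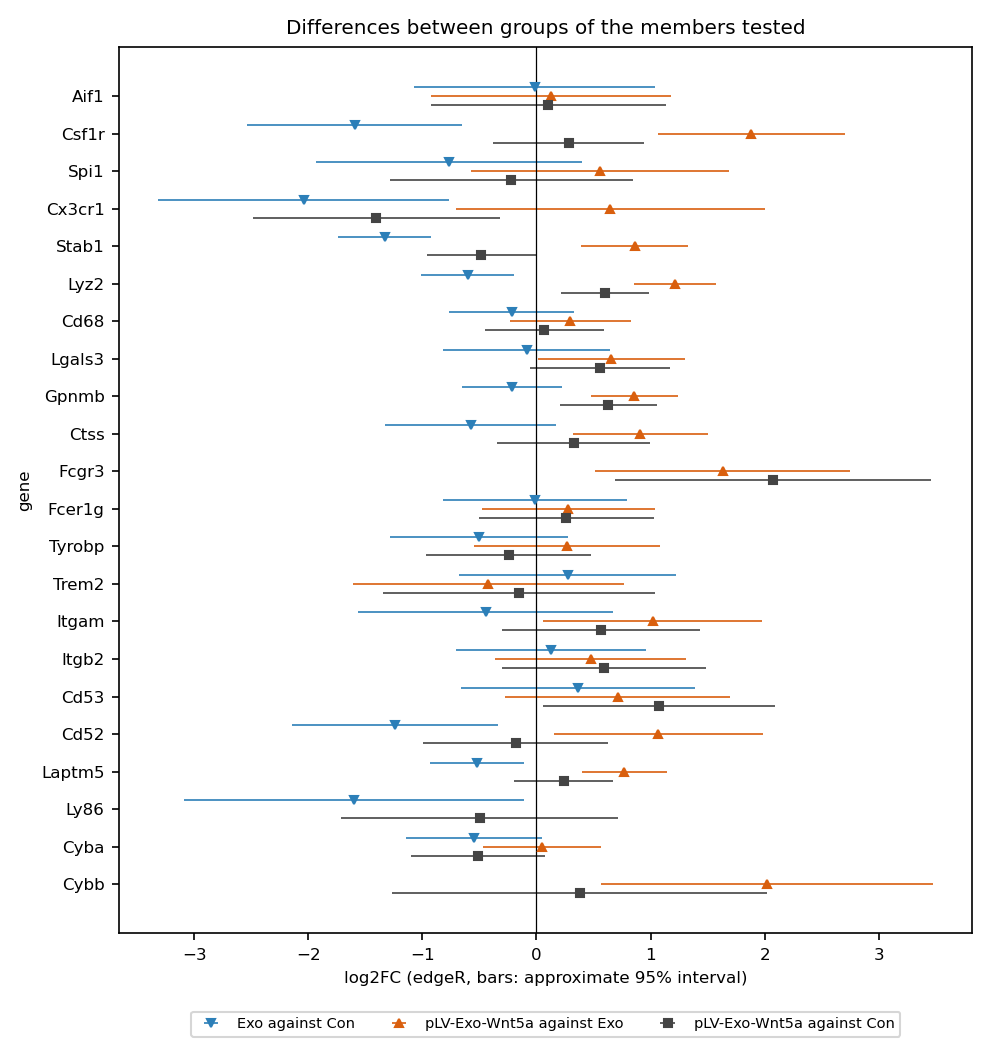
The log2FC (x axis) of each member tested (y axis) in the 3 comparisons, with bars for the approximate 95% interval from edgeR's quasi-likelihood fit and no point where a gene was not tested. Of 20 members, 17 lie below 0 for Exo against Con, 20 of 21 lie above 0 for pLV-Exo-Wnt5a against Exo, and the intervals of Aif1, Spi1, Cd68, Fcer1g, Tyrobp, Trem2 and Itgb2 include 0 throughout.

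The promoters of the members were examined for the core motif of PU.1, the product of Spi1, with the letters GAGGAAG or CTTCCTC, the same motif on the other strand. RefSeq promoters of the rat build GRCr8, from 250 bases before to 50 after the start of a gene, could be matched by symbol for 22 of the 35 genes. The motif was present in 9 of the 22 (40.91%) and in 3393 of all 27457 promoters of 300 bases (12.36%). A match is a description of the letters and not a site, and it was not compared with the log2FC. The last 100 bases before the start are shown for the 4 genes that had an unadjusted p under 0.05 in a comparison and a match within these bases, in the direction of the gene, with the match in capitals.
Ctss (chr2:185775296-185775395, + strand): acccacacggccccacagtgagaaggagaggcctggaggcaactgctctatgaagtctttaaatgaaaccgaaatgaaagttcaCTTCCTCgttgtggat
Laptm5 (chr5:148371780-148371879, + strand): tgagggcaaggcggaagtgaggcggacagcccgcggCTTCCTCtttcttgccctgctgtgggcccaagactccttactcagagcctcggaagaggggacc
Cd53 (chr2:197087897-197087996, - strand): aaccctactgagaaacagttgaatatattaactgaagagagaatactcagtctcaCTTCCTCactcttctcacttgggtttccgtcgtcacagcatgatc
Itgam (chr1:192089492-192089591, + strand): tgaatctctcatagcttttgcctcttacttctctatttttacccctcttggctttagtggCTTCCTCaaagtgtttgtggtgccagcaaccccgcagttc
The match starts 16 bases before the start of Ctss, 64 before that of Laptm5, 45 before that of Cd53 and 40 before that of Itgam, and in each it is read as CTTCCTC along the gene.

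Other genes linked to the same cell types were measured from further lists, which like the members were chosen with earlier results of these data known. Of 22 genes of haematopoietic signalling and cytoskeleton, 16 were tested. For Exo against Con 12 of the 16 were lower, and 2 had an unadjusted p under 0.05, both lower, against 14.3% of all genes in either direction and 6.06% lower. For pLV-Exo-Wnt5a against Exo 14 of the 16 were higher, and 4 had an unadjusted p under 0.05, all higher, against 11.9% of all genes in either direction and 5.13% higher. Vav1, a signalling protein of blood cells, stood at 0.950 ± 0.379 CPM in Con, 0.295 ± 0.131 CPM in Exo and 0.866 ± 0.180 CPM in pLV-Exo-Wnt5a (SD, n = 3 each). Its log2FC was -1.67 (SE 0.52, Q = 0.281, edgeR) for Exo against Con and 1.56 (SE 0.48, Q = 0.211) for pLV-Exo-Wnt5a against Exo. Plcg2, a phospholipase that acts below Trem2 and Fc receptors, had values of -0.57 (SE 0.13) and 0.52 (SE 0.15), while Rac2 and Syk had values of 0.76 (SE 0.31) and 0.40 (SE 0.17) in the second comparison. None of the 16 had an unadjusted p under 0.05 for pLV-Exo-Wnt5a against Con, against 8.47% of all genes in either direction.

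Of 10 myeloid transcription factors, 8 were tested for Exo against Con, 5 of them above 0 (median log2FC 0.07), and 8 for pLV-Exo-Wnt5a against Exo, 3 of them above 0 (median -0.01). Irf5, an interferon regulatory factor, alone had an unadjusted p under 0.05 for Exo against Con (14.3% of all genes), with a log2FC of -1.23 (SE 0.52, Q = 0.332, edgeR). For pLV-Exo-Wnt5a against Exo Irf5 was higher with 1.14 (SE 0.48, Q = 0.383), and Mef2c (-0.39) and Maf (-0.30) were lower at an unadjusted p under 0.05 but under the fold limit, both being factors that neurons and other cells also use. Among 8 further resident microglia genes, 6 were tested, and Olfml3 was lower in Exo than in Con (log2FC -0.74, SE 0.29, Q = 0.313, edgeR) and higher in pLV-Exo-Wnt5a than in Exo (1.05, SE 0.28, Q = 0.157), where Sall3 (0.19) also had an unadjusted p under 0.05. Of 10 genes of lipid- and injury-associated microglia, 6 were tested in the last comparison, with Ctsb (0.27), Ctsd (0.14) and Spp1 (0.90) higher and Lpl (-0.53) lower at an unadjusted p under 0.05, against 11.9% of all genes in either direction and 5.13% higher. Ncf1, a cytosolic partner of the NADPH oxidase, was higher there by 0.98 (SE 0.43, Q = 0.403, edgeR). Mean levels in the 3 groups lay at 535 to 641 CPM for Ctsb, 709 to 821 CPM for Ctsd and 129 to 145 CPM for Sall3. Which cells gave these values was not tested.

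Of the ligands and growth factors that sustain microglia, Csf1 stood at 34.1 ± 6.44 CPM in Con, 33.1 ± 2.67 CPM in Exo and 42.7 ± 2.60 CPM in pLV-Exo-Wnt5a (SD, n = 3 each). Its log2FC was 0.38 for pLV-Exo-Wnt5a against Exo (SE 0.08, Q = 0.0843, edgeR) and 0.32 for pLV-Exo-Wnt5a against Con (SE 0.13, Q = 0.565). Tgfb1, a cytokine needed for microglial identity, was lower in Exo than in Con by the wider rule (log2FC -0.77, SE 0.31, Q = 0.313, edgeR), and its receptor gene Tgfbr2 was higher in pLV-Exo-Wnt5a than in Exo (0.71, SE 0.22, Q = 0.213). Tgfbr1, the gene of the other receptor chain, was higher in Exo than in Con by the same rule (log2FC 1.00, SE 0.42, Q = 0.341, edgeR) and had a value of -0.59 (SE 0.27, Q = 0.434) for pLV-Exo-Wnt5a against Exo. Of 9 polarization markers, Tgfb1 alone was tested. Nos2, used to mark inflammatory states, had 0 to 6 counts, Tnf had 0 to 7, and Il1b and Il6 had 0 or 1. The study used Arg1 and Il10 to mark the anti-inflammatory state. Over the libraries of Con, Exo and pLV-Exo-Wnt5a, Arg1 summed to 12, 5 and 3 counts and Il10 to 2, 5 and 11. Of 6 MHC class II genes, 3 were tested and 0 had an unadjusted p under 0.05 in the 3 edgeR comparisons. Of all genes tested, 14.3% had such a p between Exo and Con, 11.9% between the exosome groups and 8.47% between Con and pLV-Exo-Wnt5a. With 3 genes, a count of 0 cannot be told apart from these shares.

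Markers of other cell types were measured beside these values. The 2 of 7 neutrophil genes and 3 of 9 lymphocyte genes with a row summed to at most 0.0264 and 0.227 CPM in any library. The 7 endothelial and mural genes with a row summed to 21.6 to 26.6 CPM in Con, 16.3 to 18.4 CPM in Exo and 17.2 to 19.5 CPM in pLV-Exo-Wnt5a, with the endothelial genes Cdh5 and Cldn5 at 0 to 1 and 0 to 4 counts. In this list Pdgfrb was lower in Exo (log2FC -0.74, SE 0.15, Q = 0.247, edgeR) and in pLV-Exo-Wnt5a (-0.67, SE 0.16, Q = 0.282) than in Con, and Acta2 was higher in pLV-Exo-Wnt5a than in Exo (1.51, SE 0.35, Q = 0.102). The 8 fibroblast and meningeal genes overlapped between groups at 173 to 228 CPM. The 8 astrocyte genes summed to 4986 to 6123 CPM in Con, 4896 to 4955 CPM in Exo and 6562 to 6910 CPM in pLV-Exo-Wnt5a. Without Gfap the sum of the other 7 genes overlapped between groups at 2491 to 3020 CPM. For pLV-Exo-Wnt5a against Exo 5 of the 8 had a log2FC below 0, Slc1a3, Slc1a2 and Gja1 among them with an unadjusted p under 0.05 (-0.21, -0.42 and -0.29), against 11.9% of all genes in either direction. Another 2 of the 8, Gfap among them, were higher with such a p, against 5.13% of all genes. Gfap and Vim rose for pLV-Exo-Wnt5a against Exo by 0.86 (Q = 1.8e-05, edgeR) and 0.62 (Q = 0.0474), and Dcx, a gene of young neurons, fell by 0.60 on the log2 scale (Q = 0.00954). For Exo against Con, 7 of 8 neuron genes had a log2FC above 0 (median 0.45), 5 of them with an unadjusted p under 0.05 (14.3% of all genes), and 7 of 8 neural stem cell genes had one below 0 (median -0.12), 3 of them with such a p (6.06% of all genes were lower with it). In the comparison of pLV-Exo-Wnt5a with Exo, 6 of the 8 neuron genes lay below 0 (median -0.05) and 6 of the 8 neural stem cell genes above 0 (median 0.06), with 3 and 2 past that p (11.9% of all genes). The part of these cell types in the differences of the microglia and macrophage genes was not tested.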

How the data were processed

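RNA-seq was performed on NSCs with 3 libraries in each of 3 groups. Raw counts per gene, as whole numbers, were deposited by the authors. The methods name removal of low-quality reads and HISAT2, while the submitters' processing notes name Bowtie2, RSEM 1.3.1 and DESeq2 1.4.5. The genome build and annotation are not given in the sources used here, and the symbols are mouse symbols. Reads shared with related genes, such as those of the Fc receptor family, may be counted uncertainly. Every column was assigned to a sample.

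From the deposited counts, the 2 groups of each comparison were filtered with filterByExpr, scaled by TMM, and fitted over all genes in edgeR 4.0.16 (R 4.3.3), with its robust quasi-likelihood test. Q is the Benjamini-Hochberg adjusted p over all genes tested. Standard errors and approximate 95% intervals were taken from the test statistic. CPM used TMM factors over all 9 libraries. Thresholds followed the study. The members, roles and further lists were chosen with earlier results of these data known. Values in every library are given for each member with an unadjusted p under 0.05 in any comparison and for the member with the most counts in each role. From other lists, up to 4 genes with the smallest p are named, and genes at or near 0 counts, Hox, border macrophage, endothelial and polarization markers among them, were named after their values were seen. The alternatives were RLE normalization, other filters, DESeq2 1.42.0, edgeR on all 9 libraries, no fold limit, a replicate block and leaving out each library, and the steps were tested on simulated data. Replicates differed by more than sampling noise, the chi-square over its degrees of freedom ranging from 7.54 to 50.6. Between-gene comparisons of level were not made, since gene lengths were not used here.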

Additional observations from a re-analysis of the deposited data

How the results depend on the processing

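Of 24 log2FC values of members with an unadjusted p under 0.05, 15 kept their direction and their p under 0.05 in every alternative run, the other 9 lost the p in at least 1, and 0 reversed. The strict rule (Q under 0.05 and the fold limit) called 1 member for Exo against Con. It called 0 with RLE normalization, with at least 10 counts in every library, with edgeR on all 9 libraries and with the replicate block, 2 with DESeq2 on the 2 groups or all 9 libraries, 3 without a filter, and 0 to 1 without single libraries. For pLV-Exo-Wnt5a against Exo it called 1, and 2 without a filter and with DESeq2 on the 2 groups or all 9 libraries, and 1 to 2 without single libraries. The wider rule called 5 members for pLV-Exo-Wnt5a against Con, and 2 to 6 without single libraries. In the other 2 comparisons it called 6 and 11, with 4 to 6 and 8 to 10 without single libraries. The cause of these moves was not tested, and leaving out a library also leaves fewer samples. A filter on a mean of 10 counts over the 6 libraries compared, chosen after seeing the data, gave 1, 1 and 0 calls by the strict rule and 6, 10 and 5 by the wider rule. The replicate numbers showed no pairing of samples, since the correlations of same-numbered samples ranged from -0.43 to 0.19 and at most 2 of 6 samples correlated best with their own number. Under the block the unadjusted p rose above 0.05 for Ly86 (log2FC -1.63, Exo against Con) and Cd53 (1.01, pLV-Exo-Wnt5a against Con), and beside the strict count for Exo against Con given above, no count of members moved by over 1.5 times. Over all genes, the strict rule called 3 genes for Exo against Con (0 under the block) and 11 in the comparison of pLV-Exo-Wnt5a with Con (27 under the block). The 11 members that failed the filter in every comparison had at most 14 counts in any library, and of these Tmem119 met the wider rule in runs without that filter.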
